A study of Mus musculus with 6 samples.

Results

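The SLC25 mitochondrial carriers are the transport proteins that move nucleotides, phosphate, carboxylates, amino acids, acylcarnitines and cofactors across the inner mitochondrial membrane. The members were taken by name: every gene whose mouse symbol starts with Slc25a was a member, which gave 47 of the 22942 genes in the tables, represented by 56 RefSeq transcripts. For the 7 members with several transcripts, the transcript with the highest mean level stood for the gene. The cells were C3H-10T1/2, an established mouse line of mesenchymal precursors, after 6 days of brown adipocyte differentiation. LSD1 is an enzyme that removes methyl groups from histones. Its inhibitor 611, also labelled Cpd A, was given at 4 uM to 3 cultures, and DMSO alone to 3 others. Both groups had received the same differentiation mix for 72 h, made of insulin (20 nM), the thyroid hormone T3 (1 nM), rosiglitazone (1 uM), dexamethasone (1 uM), indomethacin (125 uM) and isobutylmethylxanthine (0.5 mM) in medium with 10% serum, and then the first 3 of these agents alone. The labels place the first dose of 611 or DMSO at seeding in one field and 12 h after it in another, with induction 48 h later. A single line, a single inhibitor and a single dose were measured, so the comparison is between cultures with and without this compound.

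As background, the inner mitochondrial membrane is closed to most metabolites, and an SLC25 protein typically binds its substrate on one side and releases it on the other, often in exchange for a second substrate. Fat cells depend on several of them. The citrate carrier supplies carbon for fatty acid synthesis in the cytosol, the acylcarnitine carrier brings fatty acids in for oxidation, and the ADP/ATP and phosphate carriers serve ATP synthesis. Ucp1, which makes brown fat mitochondria produce heat, belongs to the same protein family but has another symbol and is treated below with the relatives.

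Levels are RPKM, read numbers scaled to transcript length and library depth, as the authors deposited them. The summed RPKM of all genes still differed, averaging 336671 with 611 and 351308 with DMSO. Comparisons between libraries therefore depend on the scaling chosen, as given below. Library totals recovered from the steps between low values lay between 4.08e+07 and 4.12e+07 for 611 and between 3.89e+07 and 3.99e+07 for DMSO. Across genes, which are no replicates, log levels correlated at 0.996 to 0.997 between libraries of a group and at 0.972 to 0.979 between groups. All 6 general fat cell markers examined were lower with 611, with a summed level of 11907 to 13240.4 RPKM against 22882 to 24269.7 RPKM in DMSO. Fabp4 held 86.9% to 87.6% of that sum with 611 and 89.6% to 90.5% with DMSO, and the other 5 markers summed to 1546 to 1733 RPKM with 611 against 2311 to 2377 RPKM with DMSO. Of the 6 brown fat markers 5 were lower and Ucp1 was listed at 0 in every library, and their sum was 82.6 to 101 RPKM with 611 against 223 to 267 RPKM with DMSO. Progenitor markers summed to 206 to 221 RPKM with 611 against 60.1 to 69.1 RPKM with DMSO, with 4 of 6 higher, Dlk1 not called and Dpp4 at 0. Ly6a was the largest part of that sum, averaging 130 RPKM with 611 and 31.3 RPKM with DMSO. Cartilage markers summed to 24.8 to 25.8 RPKM with 611 against 10.4 to 11.1 RPKM with DMSO, with 3 of 4 higher and Acan at 0. The osteoblast sum was 4.91 to 5.57 RPKM with 611 against 2.23 to 2.46 RPKM with DMSO and came almost wholly from Runx2. Runx2 was the only 1 of the 4 osteoblast markers that could be tested, and it was higher. Sp7, Bglap and Ibsp were too low to be tested. Their means were 0.0284, 0.0171 and 0.00418 RPKM with 611, against 0.0220, 0.0891 and 0.0516 RPKM with DMSO. Skeletal muscle markers summed to 0.186 to 0.345 RPKM with 611 against 2.23 to 3.27 RPKM with DMSO, nearly all of it Acta1, and Myod1, Myog and Ckm were at 0. Beside these calls, 41.6% of all tested genes were higher and 17.7% lower with 611. The part of these marker changes in the carrier results was not tested. In such bulk samples a lower share of fat cells and less RNA of a carrier per fat cell cannot be told apart.

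With 611 the abundant carriers were mostly lower and a set of scarcer carriers was higher. Of the 47 members 40 passed the filter on low values, which asked for at least 0.1 RPKM in at least 3 libraries. Among these 40, 19 were lower and 12 higher with 611 at a limma Benjamini-Hochberg adjusted p below 0.05, and 9 were not called. Over all 13829 genes tested 17.7% were lower and 41.6% higher, so the carriers had 47.5% lower against that background and 30% higher. The median log2 fold change, on the log2(RPKM + 1) scale, was -0.06 for the tested carriers and 0.10 for all tested genes. The 19 carriers called lower had every 611 library below every DMSO library, and the 12 called higher had every 611 library above. Complete separation of this kind was seen downwards in 20.4% and upwards in 45.8% of all tested genes. Fold changes are 611 over DMSO throughout.

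The share of higher and lower calls over all genes depends on how libraries are scaled. Under median-of-ratios scaling the all-gene median dropped by 0.11 (log2), and 28.6% of all genes were lower and 28.5% higher. Among the carriers 20 were lower and 8 higher after it, 50% and 20% of those tested. It ended the calls of Slc25a4, Slc25a12, Slc25a35 and Slc25a40 as higher and added Slc25a42 as lower. No called carrier changed direction under it.

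**Figure D1:**
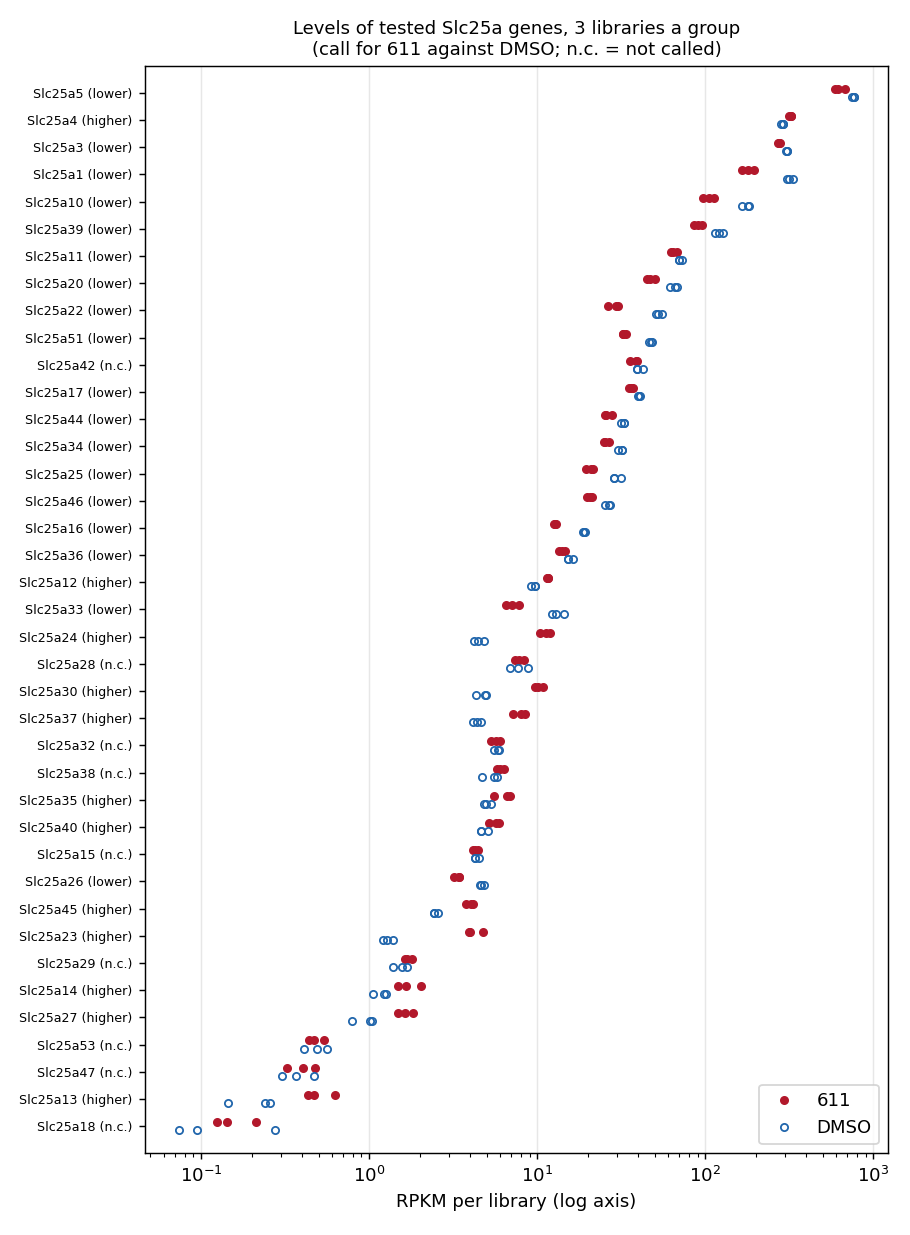
RPKM of tested Slc25a genes in each library on a log axis, ordered by mean level, with 611 libraries as filled points above the open points of the DMSO libraries and the call beside each name. From the top, Slc25a5 down to Slc25a36 lie mostly to the left with 611, except Slc25a4, whose call as higher ended after median-of-ratios scaling, while Slc25a24, Slc25a30, Slc25a37 and Slc25a23 lie to the right.

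The summed level of the 47 carriers was 2195, 2061 and 2057 RPKM in the 611 libraries, against 2619.8, 2555 and 2538 RPKM in the DMSO libraries. The groups did not overlap, and the ratio of means was 0.819 (exact two-sided permutation p = 0.1, the smallest that 3 libraries against 3 allow). As a share of the summed RPKM of all genes the family held 0.625% ± 0.0216 with 611 and 0.732% ± 0.0119 with DMSO (SD, n = 3 each).

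A few carriers made up most of this sum. Slc25a5, Slc25a4 and Slc25a3 together held 58.2% ± 0.627 of the family's RPKM with 611 and 52.6% ± 0.704 with DMSO (SD, n = 3 each). The order below Slc25a5 differed: with 611 it ran Slc25a4, Slc25a3, Slc25a1, and with DMSO Slc25a1, Slc25a3, Slc25a4. With 611 the ranges of Slc25a4, Slc25a3 and Slc25a1 were separate. With DMSO the Slc25a1 range of 305 to 333 RPKM overlapped the Slc25a3 range of 301 to 308 RPKM, so their order was within the spread there.

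The ADP/ATP carriers, which exchange cytosolic ADP for ATP made in the matrix, moved apart. Slc25a5, the widely expressed form ANT2, had 681, 593 and 615 RPKM with 611, against 769.6, 749 and 763 RPKM with DMSO. It was the most abundant carrier in every library, and it fell 1.21-fold (log2 fold change -0.27 ± 0.0572 SE, limma adjusted p = 0.00298). Slc25a4, the heart and muscle form ANT1, had 324, 316 and 325 RPKM with 611, against 289, 282 and 291 RPKM with DMSO. All 3 611 libraries were above all 3 of DMSO, a rise of 1.12-fold (log2 fold change 0.16 ± 0.0365 SE, limma adjusted p = 0.00466) that was 0.01 after median-of-ratios scaling (limma adjusted p = 0.856). The ratio of Slc25a4 to Slc25a5 within a library, which scaling cannot alter, was 0.475, 0.532 and 0.528 with 611, against 0.375, 0.376 and 0.382 with DMSO. The ratio was therefore higher in each 611 culture than in any DMSO culture. Both genes together gave 951 ± 48.7 RPKM with 611 and 1048 ± 14.7 RPKM with DMSO (SD, n = 3 each). RefSeq lists a pseudogene of Slc25a5, and how reads that match both were assigned is not known, which makes its level less certain.

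The ATP-Mg/phosphate carriers, mostly calcium-regulated proteins that adjust the adenine nucleotide content of the matrix, changed in make-up. Slc25a24 had 10.4, 12.0 and 11.3 RPKM with 611, against 4.47, 4.84 and 4.20 RPKM with DMSO. Slc25a23 had 3.97, 4.79 and 3.93 RPKM with 611, against 1.22, 1.28 and 1.40 RPKM with DMSO. They rose 2.49-fold and 3.26-fold, the largest rises on the log2(RPKM + 1) scale among the carriers (limma adjusted p = 2.2e-06 and 4.0e-06). Slc25a25 went the other way, with 20.8, 21.4 and 19.4 RPKM in the 611 libraries against 28.5, 31.7 and 28.7 RPKM in the DMSO libraries, 1.44-fold lower (limma adjusted p = 5.9e-05). The sum of the 3 was 35.1, 38.2 and 34.7 RPKM with 611, against 34.2, 37.8 and 34.3 RPKM with DMSO. These sums overlapped (exact two-sided permutation p = 0.5), with each 611 library above the DMSO library of its number. The direction of the sum depends on processing: after median-of-ratios scaling it was 32.5 to 35.9 RPKM with 611 against 36.1 to 39.3 RPKM with DMSO, and with all transcripts of a gene summed its log2 difference was -0.29, both with exact two-sided permutation p = 0.1. Slc25a25 is listed with 3 transcripts at like levels (for 611 replicate 1, 20.8, 18.9 and 20.5 RPKM), so that summing transcripts gives it about 3 times its weight. Within the sum Slc25a25 held 57.1% ± 1.77 with 611 and 83.6% ± 0.243 with DMSO, and Slc25a24 held 31.2% ± 1.53 with 611 and 12.7% ± 0.425 with DMSO (SD, n = 3 each). Slc25a41, a further ATP-Mg/phosphate carrier, was listed at 0 in all 6 libraries, where 3 reads would have given 0.0595 to 0.0630 RPKM.

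**Figure D2:**
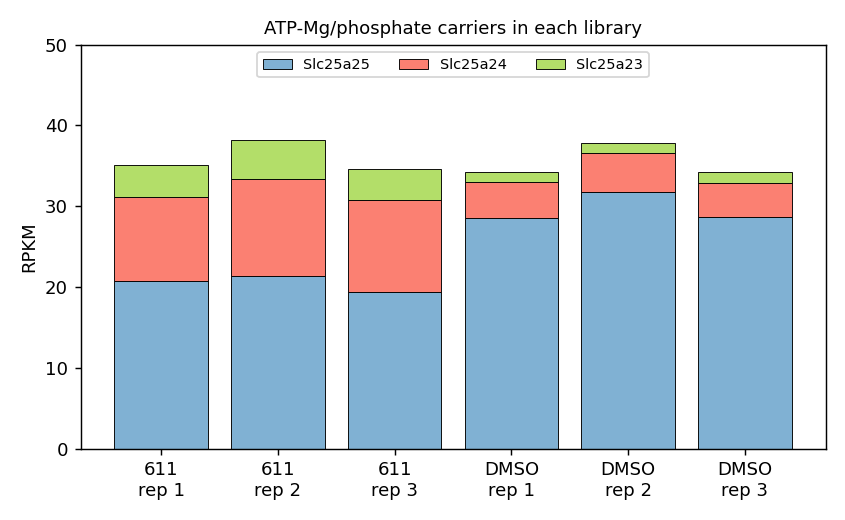
Stacked RPKM of Slc25a25, Slc25a24 and Slc25a23 in the 3 libraries with 611 and the 3 with DMSO. The bars reach 34.7 to 38.2 RPKM with 611 and 34.2 to 37.8 RPKM with DMSO, while the Slc25a25 part averages 57.1% with 611 and 83.6% with DMSO.

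The phosphate carrier gene Slc25a3, whose product brings phosphate in for ATP synthesis, had 273, 279 and 272 RPKM with 611, against 305, 308 and 301 RPKM with DMSO. That small fall of 1.11-fold was larger than the spread within either group (limma adjusted p = 0.00589).

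The carriers of di- and tricarboxylates had the largest fall in summed level among the substrate groups. Their summed RPKM was 376, 348 and 327 with 611, against 587, 564 and 539 with DMSO, a ratio of 0.622. Slc25a1, the citrate carrier, had 196, 180.2 and 165 RPKM with 611, against 333, 316 and 305 RPKM with DMSO, 1.76-fold lower (log2 fold change -0.82 ± 0.0634 SE, limma adjusted p = 9.4e-06). Slc25a10, which exchanges malate or succinate for phosphate, had 113, 105 and 96.8 RPKM with 611, against 181, 178 and 164 RPKM with DMSO. It fell 1.66-fold (limma adjusted p = 1.5e-05). Together these 2 genes made up 13.5% ± 0.708 of the family's RPKM with 611 and 19.2% ± 0.598 with DMSO (SD, n = 3 each). Slc25a11, the 2-oxoglutarate/malate carrier of the malate-aspartate shuttle, had 67.5, 62.5 and 64.6 RPKM with 611, against 72.7, 69.3 and 70.0 RPKM with DMSO. Its fall of 1.09-fold was called (limma adjusted p = 0.0281) but lost the call when 611 replicate 2, 611 replicate 3, DMSO replicate 1 or DMSO replicate 3 was left out (limma adjusted p from 0.0538 to 0.105). Slc25a21, the oxodicarboxylate carrier, stayed under the filter, with 7, 1 and 5 recovered reads with 611 and 5, 2 and 0 with DMSO.

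Slc25a20, the carnitine/acylcarnitine carrier of fatty acid oxidation, had 50.5, 46.8 and 44.7 RPKM with 611, against 68.2, 61.6 and 66.1 RPKM with DMSO. The groups were separate, and the gene was 1.38-fold lower (limma adjusted p = 1.2e-04).

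Amino acid carriers were mixed: of 8 tested 2 rose, 2 fell and 4 were not called. Over all tested genes 41.6% were higher and 17.7% lower. Slc25a22, a glutamate carrier, had 30.1, 29.5 and 26.4 RPKM with 611, against 52.4, 55.1 and 50.6 RPKM with DMSO. Its log2 fold change of -0.86 ± 0.0558 SE was the lowest of the family on the log2(RPKM + 1) scale (1.84-fold lower, limma adjusted p = 3.9e-06). By ratio of means Slc25a33 fell slightly more, 1.85-fold. Slc25a44, which imports branched-chain amino acids and has been linked to their use in brown fat, was 1.23-fold lower at 26.4 ± 1.32 RPKM with 611 against 32.4 ± 0.897 RPKM with DMSO (SD, n = 3 each; limma adjusted p = 6.3e-04).

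The aspartate/glutamate carriers of the malate-aspartate shuttle rose. Slc25a12 (aralar) had 11.7, 11.6 and 11.5 RPKM with 611, against 9.70, 9.18 and 9.77 RPKM with DMSO, a rise of 1.21-fold (limma adjusted p = 0.00101) that missed the threshold after median-of-ratios scaling (limma adjusted p = 0.0597) and passed it with scaling and replicate block together (limma adjusted p = 0.0407). Slc25a13 (citrin) was scarce, with 0.471, 0.631 and 0.431 RPKM with 611, against 0.239, 0.145 and 0.257 RPKM with DMSO. These values stand for 60, 81 and 55 recovered reads with 611 and 29, 18 and 32 with DMSO. Citrin was 2.39-fold higher (log2 fold change 0.31 ± 0.0704 SE, limma adjusted p = 0.00438).

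The remaining amino acid carriers stayed close to their DMSO levels. The ornithine carrier Slc25a15 averaged 4.29 ± 0.15 RPKM with 611 and 4.35 ± 0.133 RPKM with DMSO (SD, n = 3 each). Slc25a29, which carries basic amino acids, averaged 1.71 ± 0.0863 RPKM with 611 and 1.55 ± 0.145 RPKM with DMSO (SD, n = 3 each). Slc25a38, the glycine carrier that feeds haem synthesis, averaged 6.04 ± 0.301 RPKM with 611 and 5.33 ± 0.550 RPKM with DMSO. It was not called (limma adjusted p = 0.0998), although a fit with replicate number as a block called it higher (limma adjusted p = 0.0323). Slc25a18, a second glutamate carrier, and the ornithine carrier Slc25a2 were near the limit of detection. Slc25a18 had 8, 12 and 7 recovered reads with 611 and 5, 4 and 15 with DMSO, and Slc25a2 had 4, 4 and 0 with 611 and 3, 8 and 0 with DMSO.

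Carriers of nucleotides and cofactors were the largest group and were mainly lower, with 8 of 11 lower, Slc25a40 higher and 2 not called. Over all tested genes 17.7% were lower and 41.6% higher. These carriers span several levels, and the share of all genes lower differed by level. It was 13.7% from 1 to 20 RPKM, 34.0% from 20 to 100 RPKM and 50.3% at 100 RPKM or more. After median-of-ratios scaling 9 of the 11 were lower and 0 higher, beside 28.6% lower and 28.5% higher over all tested genes. Slc25a39, a glutathione carrier, was the most abundant of them, with 95.6, 90.8 and 86.2 RPKM in the 611 libraries against 128, 121 and 115 RPKM in the DMSO libraries, 1.33-fold lower (limma adjusted p = 1.7e-04). Its relative Slc25a40 had 5.17, 5.72 and 5.91 RPKM with 611, against 5.09, 4.64 and 4.63 RPKM with DMSO. That rise of 1.17-fold was fragile (limma adjusted p = 0.0310): it was lost after median-of-ratios scaling, without a filter on low values, and on leaving out 611 replicate 2, 611 replicate 3, DMSO replicate 2 or DMSO replicate 3. The largest fall here was that of Slc25a33, a carrier of pyrimidine nucleotides, with 7.74, 7.04 and 6.57 RPKM with 611 against 14.4, 12.9 and 12.3 RPKM with DMSO. It was 1.85-fold lower (limma adjusted p = 2.1e-05). Slc25a36, the other pyrimidine nucleotide carrier, had 14.1, 13.5 and 14.6 RPKM with 611, against 15.3, 15.2 and 16.3 RPKM with DMSO. Its fall of 1.11-fold (limma adjusted p = 0.0298) lost its call without 611 replicate 1, 611 replicate 2, DMSO replicate 1 or DMSO replicate 3.

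Carriers of enzyme cofactors were among those that fell. Slc25a51, the NAD+ carrier, had 33.9, 32.4 and 32.6 RPKM with 611, against 48.1, 47.5 and 46.1 RPKM with DMSO. Slc25a16, which has been linked to coenzyme A, had 12.9, 12.8 and 12.6 RPKM with 611, against 18.9, 18.8 and 19.4 RPKM with DMSO. Both genes had separate groups and were 1.43-fold and 1.49-fold lower (limma adjusted p = 6.4e-06 and 5.5e-06). Slc25a26, which imports the methyl donor S-adenosylmethionine, was 1.39-fold lower at 3.36 ± 0.148 RPKM with 611 against 4.66 ± 0.160 RPKM with DMSO (SD, n = 3 each). Slc25a17, a carrier of the peroxisome membrane, was 1.12-fold lower at 36.1 ± 1.05 RPKM with 611 against 40.3 ± 0.635 RPKM with DMSO (SD, n = 3 each). The coenzyme A carrier Slc25a42 averaged 37.8 ± 1.96 RPKM with 611 and 40.3 ± 1.93 RPKM with DMSO and was not called (limma adjusted p = 0.161). It was called lower with replicate number as a block (limma adjusted p = 0.0425) and after median-of-ratios scaling (limma adjusted p = 0.00639). Slc25a32, which carries folate and FAD, averaged 5.66 ± 0.324 RPKM with 611 and 5.77 ± 0.210 RPKM with DMSO and was not called (limma adjusted p = 0.727).

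Of the iron carriers 1 rose. Slc25a37 (mitoferrin 1), known for supplying iron to haem synthesis in developing red cells, had 7.21, 8.05 and 8.43 RPKM with 611, against 4.39, 4.64 and 4.13 RPKM with DMSO. Slc25a28 (mitoferrin 2), the form of most other tissues, had 7.76, 8.31 and 7.41 RPKM with 611, against 7.67, 8.81 and 6.85 RPKM with DMSO. Mitoferrin 1 was 1.80-fold higher (limma adjusted p = 2.7e-05), while the groups overlapped for mitoferrin 2 (limma adjusted p = 0.908). The ratio of Slc25a37 to Slc25a28 was accordingly 1.01 ± 0.111 with 611 and 0.567 ± 0.0384 with DMSO (SD, n = 3 each).

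All 3 members that resemble uncoupling proteins by sequence were higher with 611. Their means lie from 1 to 20 RPKM, where 47.2% of all genes were higher, beside 41.6% of all tested genes. After median-of-ratios scaling these shares were 32.4% and 28.5%. Slc25a30, also called KMCP1, had 10.1, 9.68 and 10.8 RPKM with 611, against 4.93, 4.35 and 4.87 RPKM with DMSO, 2.16-fold higher (log2 fold change 0.97 ± 0.0628 SE, limma adjusted p = 3.8e-06). Slc25a27, also called UCP4 and best known from brain, had 1.49, 1.82 and 1.63 RPKM with 611, against 0.795, 1.01 and 1.05 RPKM with DMSO. Slc25a14, also called UCP5, had 1.65, 2.05 and 1.48 RPKM with 611, against 1.25, 1.23 and 1.06 RPKM with DMSO. The last 2 rose 1.73-fold and 1.46-fold (limma adjusted p = 0.00106 and 0.0109). Their calls also held after median-of-ratios scaling (limma adjusted p = 0.00310 and 0.0444). The genes that carry the Ucp symbol differed from these: Ucp3 was 2.74-fold lower at 2.41 ± 0.254 RPKM with 611 against 6.61 ± 0.148 RPKM with DMSO, Ucp2 was 1.72-fold lower at 2.75 ± 0.550 RPKM with 611 against 4.72 ± 0.359 RPKM with DMSO, and Ucp1 was listed at 0 in every library.

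Slc25a46, which sits in the outer membrane and takes part in mitochondrial fusion and fission, had 21.2, 19.8 and 20.7 RPKM with 611, against 26.9, 25.5 and 27.2 RPKM with DMSO, 1.29-fold lower (limma adjusted p = 1.4e-04). Among members without a settled substrate, Slc25a34 had 25.3, 26.7 and 24.9 RPKM with 611, against 30.3, 31.8 and 32.2 RPKM with DMSO, 1.23-fold lower (limma adjusted p = 4.4e-04). Slc25a45 had 3.78, 4.16 and 4.04 RPKM with 611, against 2.57, 2.44 and 2.42 RPKM with DMSO, 1.61-fold higher (limma adjusted p = 7.9e-05). The groups were separate for both genes. Slc25a35 was 1.26-fold higher at 6.32 ± 0.700 RPKM with 611 against 5.03 ± 0.263 RPKM with DMSO (SD, n = 3 each; limma adjusted p = 0.0132), and lost the call after median-of-ratios scaling or without 611 replicate 3. Slc25a47, a liver gene, averaged 0.402 ± 0.0757 RPKM with 611 and 0.380 ± 0.0862 RPKM with DMSO, and Slc25a53 averaged 0.482 ± 0.0497 RPKM with 611 and 0.487 ± 0.0742 RPKM with DMSO. Neither was called (limma adjusted p = 0.801 and 0.963).

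The 7 members that did not pass the filter were Slc25a2, Slc25a21, Slc25a31, Slc25a41, Slc25a43, Slc25a48 and Slc25a54. Slc25a31, the ADP/ATP carrier of testis, had 0, 0 and 2 recovered reads with 611 and 1, 0 and 0 with DMSO. Slc25a54 had 1, 1 and 2 with 611 and 0, 1 and 0 with DMSO. Slc25a41, Slc25a43 and Slc25a48 were listed at 0 in all 6 libraries. For Slc25a48, a choline carrier that has been studied in brown fat, 3 reads would have given 0.0216 to 0.0229 RPKM, so expression above that was not detected.

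**Figure D3:**
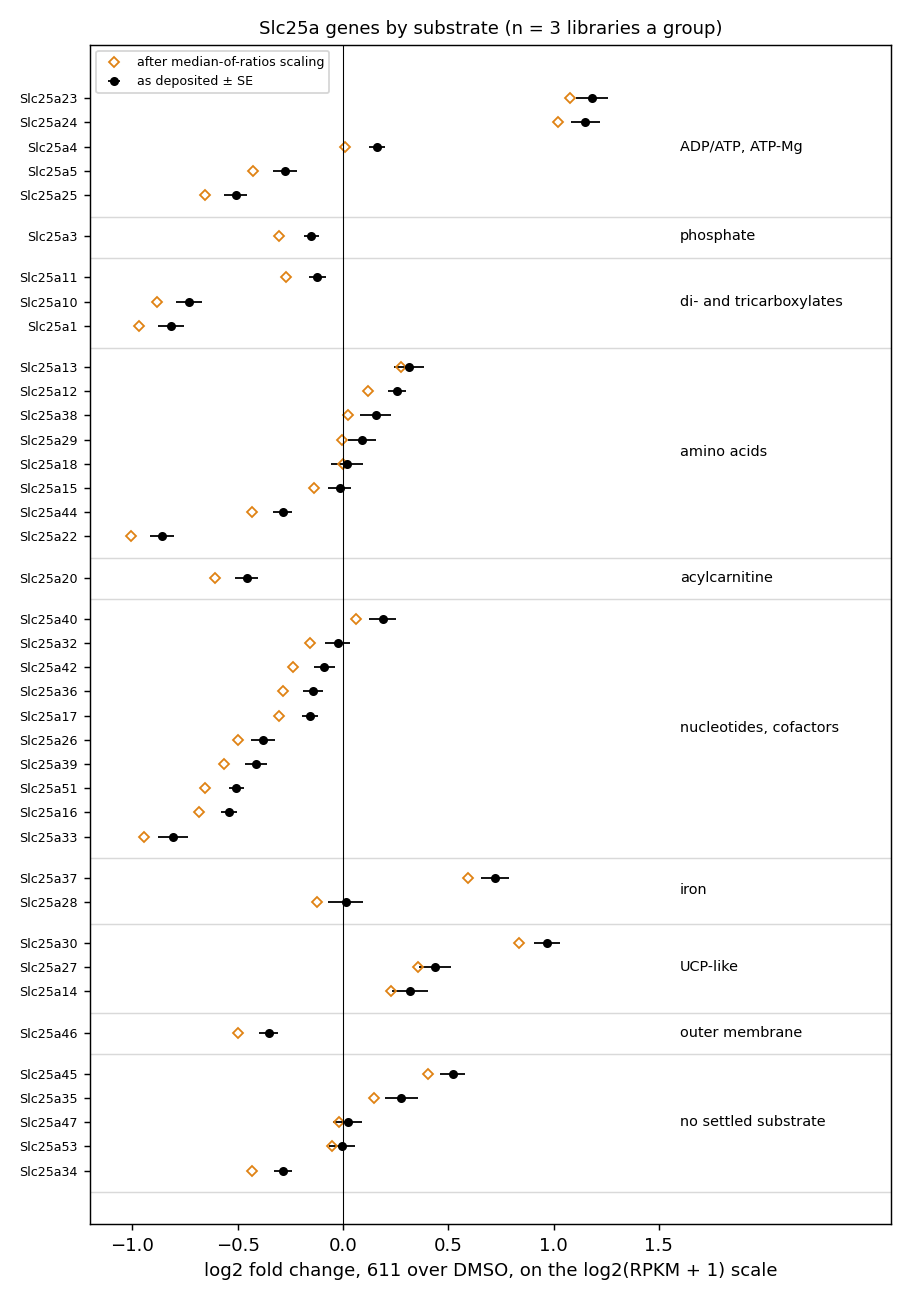
Log2 fold change of tested Slc25a genes with 611 over DMSO, grouped by substrate, as filled points with the standard error from the limma fit and, as open diamonds, after median-of-ratios scaling. Di- and tricarboxylate carriers lie left of 0 (-0.82, -0.73 and -0.12) and the UCP-like genes right of it (0.97, 0.44 and 0.32), and the diamonds lie left of the points throughout.

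A total of 8 pairs of carriers with the same or a like substrate were compared by their ratio within a library, a measure that does not change with library scaling. In 7 of the 8 pairs the 3 ratios of one group did not overlap those of the other, each with an exact two-sided permutation p = 0.1, the smallest this design allows (0.114 after Benjamini-Hochberg adjustment over the 8 pairs). Separation is common here: as given above, 45.8% of single genes separated upwards and 20.4% downwards, and no share over other gene pairs was computed. The largest difference was in Slc25a25 over Slc25a24, at 2.00, 1.79 and 1.72 with 611 against 6.37, 6.56 and 6.83 with DMSO, a log2 difference of -1.85. The ratio of Slc25a33 to Slc25a36 was 0.550, 0.522 and 0.450 with 611 against 0.938, 0.846 and 0.757 with DMSO. The ratio of Slc25a39 to Slc25a40 was 18.5, 15.9 and 14.6 with 611 against 25.1, 26.2 and 24.8 with DMSO. In these 3 pairs the first-named gene lost ground to its partner in every 611 culture. The ratio of Slc25a12 to Slc25a13 was 23.3 ± 4.30 with 611 and 47.2 ± 13.9 with DMSO, and that of Slc25a23 to Slc25a24 was 0.376 ± 0.0267 with 611 and 0.290 ± 0.0372 with DMSO (SD, n = 3 each). Slc25a22 over Slc25a18 overlapped between the groups (exact two-sided permutation p = 0.3), with few reads behind Slc25a18.

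**Figure D4:**
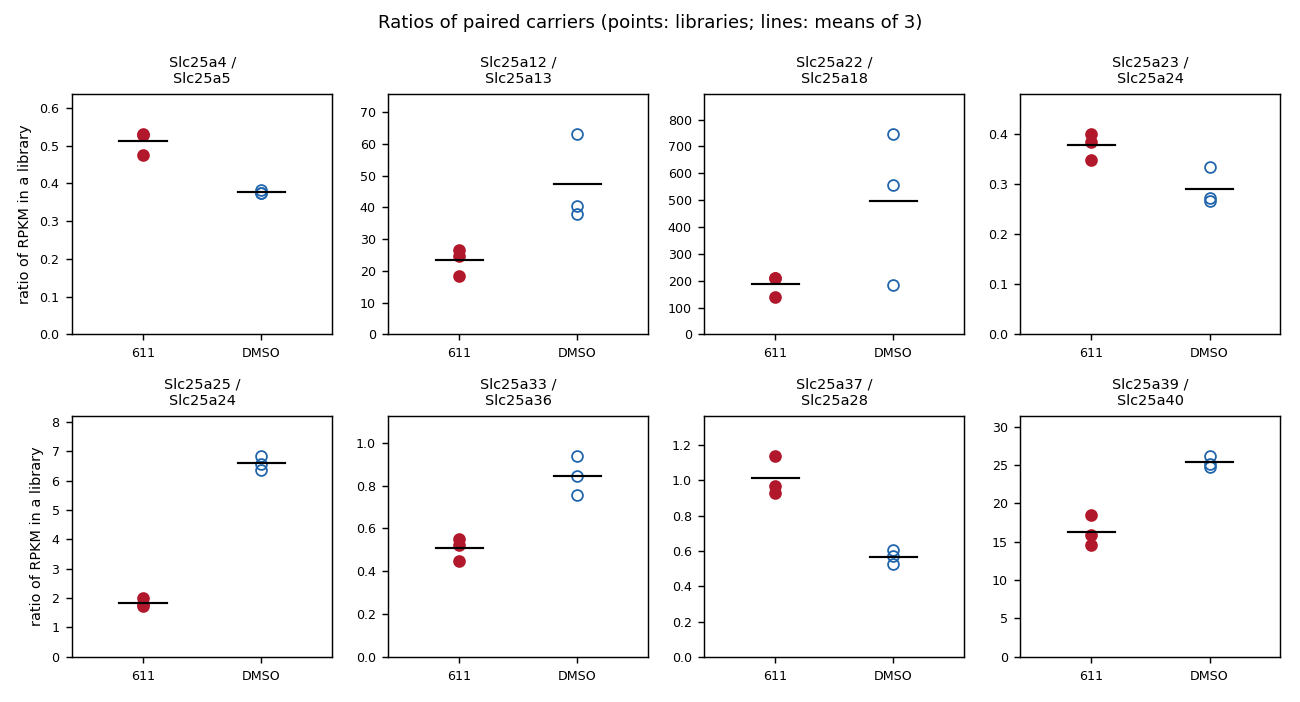
Ratio of the RPKM of paired carriers in each library, with 611 left of DMSO, points for libraries and lines for means of 3, on axes that start at 0. The groups are separate in 7 of the 8 panels, for example 1.72 to 2.00 with 611 against 6.37 to 6.83 with DMSO for Slc25a25 over Slc25a24, and overlap for Slc25a22 over Slc25a18.

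The direction of a carrier went with its level. Of the 6 members with a mean of at least 100 RPKM over the 6 libraries, 5 were lower and Slc25a4 was higher, a call that ended after median-of-ratios scaling. Of the 11 with a mean from 20 to 100 RPKM, 10 were lower and Slc25a42 was not called. Of the 19 with a mean from 1 to 20 RPKM, 10 were higher, 4 lower and 5 not called. A like slope was present in all genes: 50.3% of genes at 100 RPKM or more were lower with 611 and 35.4% higher, against 34.0% lower and 38.3% higher at 20 to 100 RPKM, and 13.7% lower and 47.2% higher at 1 to 20 RPKM. The median log2 fold change of the carriers from 20 to 100 RPKM was -0.35, beside 0.02 for all genes of that level, and that of the carriers from 1 to 20 RPKM was 0.19, beside 0.15. After median-of-ratios scaling the same medians were -0.50 and -0.13 from 20 to 100 RPKM, and 0.06 and 0.02 from 1 to 20 RPKM. Of the carriers from 1 to 20 RPKM 7 were then higher and 4 lower, and all 11 from 20 to 100 RPKM were lower. The shares of all genes under this scaling were 59.3% lower and 23.7% higher at 100 RPKM or more, 50.1% lower and 22.7% higher at 20 to 100 RPKM, and 25.5% lower and 32.4% higher at 1 to 20 RPKM.

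**Figure D5:**
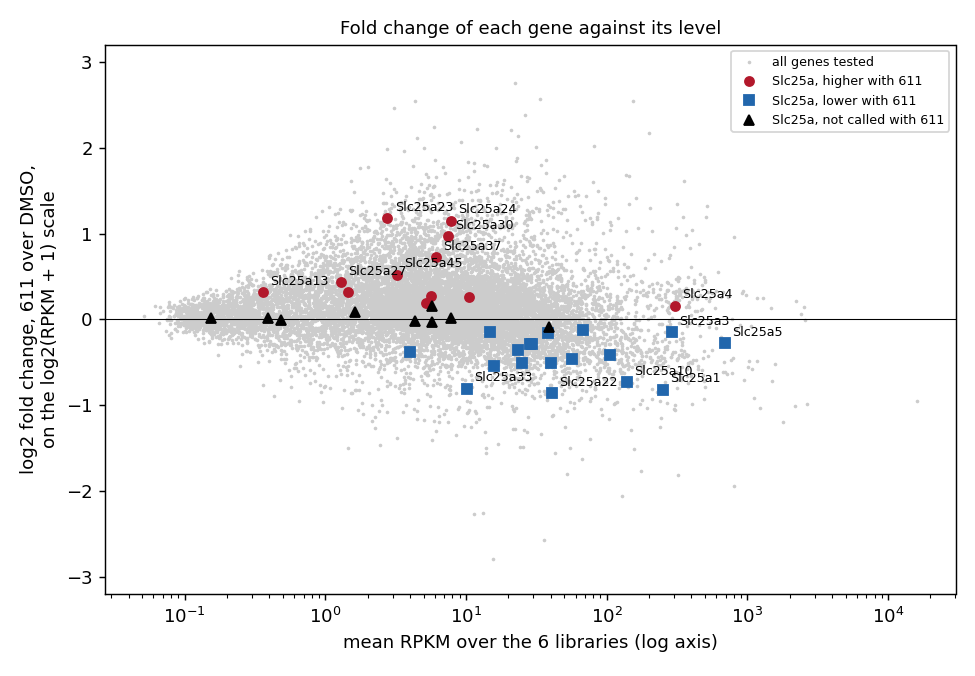
Log2 fold change with 611 over DMSO on the log2(RPKM + 1) scale against the mean RPKM over the 6 libraries on a log axis, for all 13829 tested genes in grey and tested Slc25a genes by call. Lower carriers (squares) lie mostly above 10 RPKM and higher carriers (circles) mostly below it, with Slc25a4 the exception at the right, whose call as higher ended after median-of-ratios scaling.

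Other genes of mitochondrial transport were examined as a list of relatives, other transporters, import factors and partner enzymes, of which 44 of 45 could be tested: 28 were lower, 8 higher and 8 not called, with a median log2 fold change of -0.28, beside 17.7% lower, 41.6% higher and a median of 0.10 over all tested genes. After median-of-ratios scaling 34 were lower and 7 higher, with a median of -0.43, beside 28.6% lower and 28.5% higher over all tested genes. Of the 6 genes for the import of carrier precursors, 5 were lower, among them Timm10, a chaperone of the intermembrane space, 1.43-fold lower at 26.5 ± 1.03 RPKM with 611 against 37.8 ± 1.15 RPKM with DMSO, and Tomm70a, the outer receptor, 1.23-fold lower. Timm22, the core of the carrier translocase, was 1.22-fold lower, and Timm10b was not called (limma adjusted p = 0.0636) but was lower with replicate block (limma adjusted p = 0.0375) and after median-of-ratios scaling (limma adjusted p = 0.00152), which made 6 of 6 lower. Of 17 transporters outside the family 6 were lower and 4 higher. The count depends on the fit: 11 were lower and 3 higher after median-of-ratios scaling, and 8 were lower with replicate block, which added Vdac2 and Vdac3 (limma adjusted p = 0.0139 and 0.0336), channels of the outer membrane. The pyruvate carrier gene Mpc1 was 1.56-fold lower at 236 ± 11.1 RPKM with 611 against 367 ± 8.84 RPKM with DMSO, and Letm1, a gene of cation exchange, 1.51-fold lower. Sfxn3, a sideroflexin, was 2.37-fold higher at 14.8 ± 0.759 RPKM with 611 against 6.22 ± 0.533 RPKM with DMSO (SD, n = 3 each). Of the outer membrane relatives of the family, Mtch1 was 1.71-fold higher at 103 ± 4.92 RPKM with 611 against 60.5 ± 3.62 RPKM with DMSO, while Mtch2 was 1.23-fold lower. Among 17 partner enzymes 14 were lower and 3 higher. Cpt1b, which loads acyl groups on carnitine, was 2.09-fold lower at 6.89 ± 0.643 RPKM with 611 against 14.4 ± 1.16 RPKM with DMSO. The more abundant Cpt1a, of the same step, was 1.57-fold higher at 29.5 ± 1.06 RPKM with 611 against 18.8 ± 0.858 RPKM with DMSO. Crat, the carnitine acetyltransferase, was 1.75-fold lower, and Alas1, the first enzyme of haem synthesis, 1.70-fold lower. Got2, the matrix aspartate aminotransferase, was 1.69-fold higher at 60.5 ± 2.47 RPKM with 611 against 35.9 ± 1.53 RPKM with DMSO. The other two that rose, Got1 and Cpt1a, are named after their values were seen.

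Promoter windows of 250 bases before to 50 bases after the start were given for 36 of the 47 members by RefSeq (GRCm38.p6), a later build than the mm9 of the deposited values. They were searched on both strands for CACGTG (the E-box, bound by SREBP, USF and MYC-type factors), GCGCATGC (NRF1-type) and TCAAGGTCA (ESRRA-type), motifs of factors that act on metabolic and mitochondrial genes. An E-box was present in 7 of the 36 members, 19.4%, beside 8.09% of all genes with a window. The 7 were Slc25a1, Slc25a33 and Slc25a36, lower with 611, Slc25a13 and Slc25a14, higher, Slc25a15, not called, and Slc25a31, not tested, so that both directions occurred among them. The NRF1-type letters were in the windows of Slc25a31 and Slc25a54 (5.56%, beside 3.05% of all genes), and the ESRRA-type letters were in no member's window, beside 0.466% of all genes. The stretches around the E-box of the 5 called members are shown 5′ to 3′ on the strand of the gene, with the E-box in capitals, because these genes share the motif and differ in direction.
Slc25a1, chr16:17928431-17928469, minus strand: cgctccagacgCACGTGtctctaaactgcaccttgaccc
Slc25a33, chr4:149774268-149774317, minus strand: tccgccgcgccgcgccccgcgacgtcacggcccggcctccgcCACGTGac
Slc25a36, chr9:97111201-97111250, minus strand: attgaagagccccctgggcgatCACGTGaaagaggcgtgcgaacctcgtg
Slc25a13, chr6:6217271-6217320, minus strand: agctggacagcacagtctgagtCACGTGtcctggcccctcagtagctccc
Slc25a14, chrX:48623372-48623421, plus strand: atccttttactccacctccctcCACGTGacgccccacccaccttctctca
The first base of the E-box lies 239 bases before the start in Slc25a1, 8 in Slc25a33, 187 in Slc25a36 and 125 in Slc25a13, and 54 and 184 bases before the annotated starts of Slc25a14. A match describes the letters and says nothing of binding in these cells.

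The sources used here do not say whether reads were counted by strand, and 5 members share at least 100 exon bases with a protein-coding gene on the opposite strand in the GENCODE annotation. Slc25a35 overlaps Rangrf, which was higher with 611 (4.51 ± 0.175 RPKM with 611 against 3.04 ± 0.409 RPKM with DMSO), and Slc25a26 overlaps Lrig1, which was lower (13.1 ± 0.724 RPKM with 611 against 24.4 ± 2.01 RPKM with DMSO), each in the direction of the carrier. Slc25a25 overlaps Naif1, which stayed near 2 RPKM (1.97 ± 0.385 RPKM with 611 against 1.90 ± 0.190 RPKM with DMSO). Slc25a46, called lower, shares up to 374 bases with B930094E09Rik, whose level is not given here. Slc25a21, under the filter, overlaps Pax9, which was higher with 611 (1.34 ± 0.180 RPKM with 611 against 0.837 ± 0.0997 RPKM with DMSO). The part of shared reads in these values was not tested.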

How the data were processed

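Per the labels' protocols, RNA of 6 cultures was extracted with TRIzol and made into stranded mRNA libraries. Per the submitters' processing notes, TopHat2 2.0.12, TopHat and SAMtools were used with build mm9. The authors deposited RPKM for 28430 RefSeq transcripts per library. For the program behind the RPKM, its annotation and strand setting: not given in the sources used here. A RefSeq gene table (GRCm38.p6) named 27789 transcripts, and the others stayed in the tests under their accession. The transcript with the highest mean stood for each gene. Groups and replicate numbers came from the sample titles, and the series' text calls the libraries biological triplicates; p-values measure the spread between these cultures.

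The main test was limma 3.58.1 (R 4.3.3) with an intensity trend on log2(RPKM + 1), group as the only term, with Benjamini-Hochberg adjustment over 13829 genes. This scale understates the change of low genes, so ratios of mean RPKM are given as folds. Scripts were tested on simulated data. Single values were compared by exact permutation. Reads of scarce members are the fewest whole reads that match all 6 libraries, from totals found by steps of low values. The transcript length was left free in that match and could differ from the reference length, as for Slc25a18 (1363 against 1911 bases). Between 51.5% and 53.9% of low values were whole at the reference length, within 0.02 reads. The recovered reads are therefore approximate, and no count test was run. Floors are 3 reads and cover counting error only. The members, substrate lists and pairs were chosen with earlier results of these data known. Values in every library are given for the most abundant member of each substrate group, for paired carriers of at least 1 RPKM, and for the 8 largest rises and falls; genes outside the family are limited to the 4 largest changes of each list, with exceptions stated. Some items that this rule names are not reported here, although counts and sums include them. Same-numbered libraries deviated together from their group means (correlations across genes 0.296, 0.298 and 0.177), so the numbers were taken as pairing the cultures. The main test and the permutation tests of 3 libraries against 3 do not use this pairing. A fit with replicate block is reported where it changed a call. Other alternatives were another pseudocount, other filters, median-of-ratios scaling, no intensity trend, summed transcripts and leaving out each library. Protein sequences are not used here.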

Additional observations from a re-analysis of the deposited data

How the results depend on the processing

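The count of carriers called stayed within 1.5 times under every alternative tried: leaving out 1 library at a time gave 10 to 12 higher and 17 to 19 lower, and the other settings gave 8 to 13 higher and 18 to 21 lower. With the replicate block 13 were higher and 20 lower, Slc25a38 and Slc25a42 being the additions, and no other carrier's call changed. The block gave 6169 higher and 2700 lower over all genes, beside 5758 and 2451 in the main fit. With block and median-of-ratios scaling together, an alternative chosen after seeing the data, 9 were higher and 21 lower; Slc25a32 was then called lower, and Slc25a12, lost under scaling alone, was called higher. Over all genes, those lower numbered 2451, 3962 after median-of-ratios scaling and 4327 with the block as well. That scaling also moved the log2 ratio of the family's summed RPKM from -0.29 to -0.44, since it lowers every 611 library relative to DMSO. For the summed ATP-Mg/phosphate carriers, examined under alternatives chosen after seeing the data, the log2 ratio of 0.02 became -0.13 under that scaling and -0.29 with transcripts summed, and ranged from -0.02 to 0.07 on leaving out 1 library. Without the intensity trend Slc25a11 lost its call. For the paralogue ratios and the sum the replicate block leaves the difference as it is and allows no exact p below 0.25. Below about 1 RPKM the few recovered reads limit what could be seen.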
